A study of Mus musculus with 20 samples.

Results

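The response of heterozygous (het) primary mouse renal tubular epithelial cells to lipopolysaccharide (LPS) plus interferon-gamma (IFNγ) was examined across the transcriptome in 8 of the 20 RNA libraries of the study. The 8 libraries were control and stimulated replicates 1 to 4 of the het genotype. The fifth het pair was left out because its interferon target genes ran against its stimulation labels. For example, the immunoproteasome gene Psmb8 stood at 3.4 to 5.16 CPM (counts scaled by library size) in control replicates 1 to 4 and at 301 to 346 CPM in the stimulated ones. It stood at 89.3 CPM in the library labelled control replicate 5 and at 2.3 CPM in the library labelled stimulated replicate 5. The libraries were thus chosen by the levels of interferon targets, and the counts of called genes given here describe these 8 libraries without being independent evidence of a response. The interferon targets of the het replicate 5 pair were part of that choice. Of the knockout (KO) libraries of the same study, the replicate 4 pair was set aside for the same pattern, and the other 4 pairs had no part in choosing the het libraries.

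All cells carried the targeted Ptprz1 allele of strain B6.129-Ptprz1tm1Nmo, in 1 copy (het) or in both (KO). The product of Ptprz1 is a phosphatase of the receptor type that acts on tyrosine residues. Stimulated cells received 100 ng/mL LPS and 10 ng/mL IFNγ for 24 h, and control cells neither. Every culture was grown with 10% serum, EGF, prostaglandin E2, triiodothyronine, hydrocortisone, epinephrine and an insulin supplement, so control cells also received growth factor, prostaglandin and glucocorticoid signals. The labels give control and stimulated replicate 1 to animal 1, replicate 2 to animal 2 and replicate 4 to animal 9, but control replicate 3 to animal 7 and stimulated replicate 3 to animal 5. Animals 5 and 7 are also listed under KO. Within a group each library comes from a different animal, so the spread behind each p-value includes that between animals.

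LPS is a bacterial cell wall component that Toll-like receptor 4 senses, and it activates NF-kB and mitogen-activated kinases. IFNγ acts through the kinases JAK1 and JAK2 on transcription factors that bind GAS elements (IFNγ-activated sites), while ISRE elements (interferon-stimulated response elements) are bound by factors of the IRF family. Tubular epithelial cells line the nephron, depend largely on mitochondrial fuel oxidation in the kidney, and respond to inflammatory cytokines themselves.

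The 8 cultures differed in the marker RNA they held before any effect of stimulation was read. Markers of tubular epithelium summed to 1939, 442, 607 and 2036 CPM in control replicates 1 to 4, and proximal tubule markers to 644, 57.2, 58.8 and 541 CPM. In the stimulated libraries the proximal sum was 225, 46.1, 97.5 and 261 CPM, lower than in the control of replicates 1, 2 and 4 and higher in replicate 3. Fibroblast and pericyte markers ran the other way, at 270, 7480, 19058 and 1559 CPM in the controls and 124, 4604, 7273 and 862 CPM in the stimulated libraries. Replicates 1 and 4 thus held more epithelial and replicates 2 and 3 more fibroblast marker RNA, in both states. Podocyte markers summed to 198, 492, 403 and 223 CPM in the controls and 97.4, 311, 237 and 135 CPM in the stimulated libraries, lower in every pair as the fibroblast and pericyte sum was. Epcam, an epithelial adhesion molecule, was at 35.4, 0.511, 19.9 and 42.6 CPM in the controls, so this defining marker was nearly absent from replicate 2. Leukocyte markers summed to 29.0 to 422 CPM in controls and 39.8 to 387 CPM in stimulated libraries, with the T cell marker Cd3e at 0 in all 8. In bulk RNA, fewer cells of a type and less RNA per cell cannot be told apart. Ptprz1 itself gave 0, 4, 0 and 3 counts in the controls and 2, 4, 0 and 3 counts in the stimulated libraries, which cannot check the genotype. Total counts were 15143865 to 20411411 per library. A count of 0 allows up to 0.138 to 0.196 CPM per library by counting error alone.

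**Figure D1:**
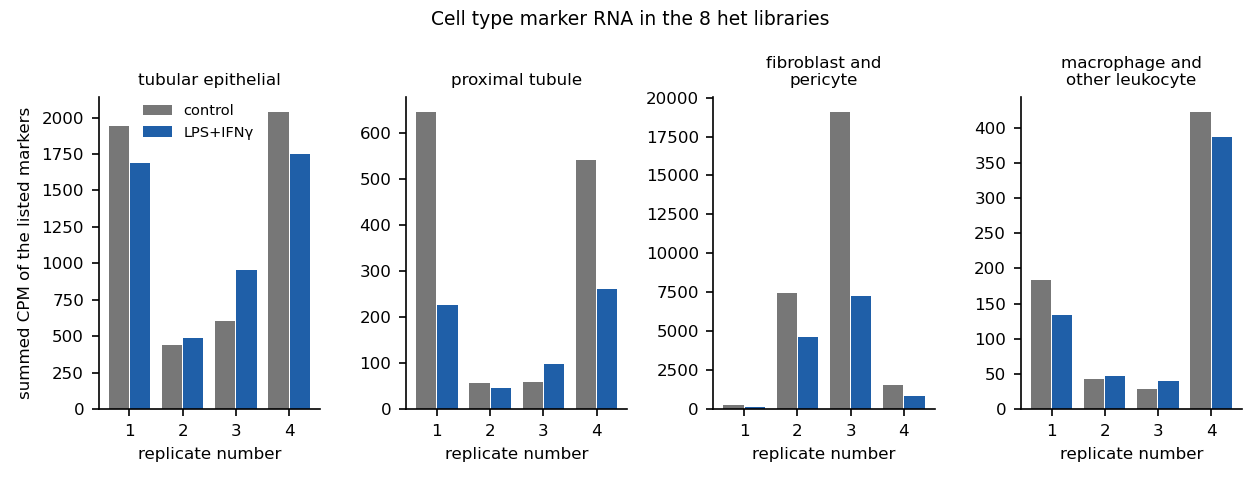
Bars show the summed CPM of the listed markers of 4 cell classes in control (grey) and LPS+IFNγ (blue) libraries of het replicates 1 to 4, with a separate linear axis for each class. Replicates 1 and 4 are the higher ones for tubular and proximal markers and replicates 2 and 3 for fibroblast and pericyte markers; the latter sum is lower in the stimulated library of every pair, as is that of podocyte markers, which are not drawn.

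Across 13871 genes tested, 398 rose and 40 fell in stimulated cells (edgeR's quasi-likelihood test, Benjamini-Hochberg adjusted p under 0.05, n = 4 against 4). These are 2.87% and 0.288% of the genes tested, 3.16% together, a share that the choice of libraries shaped. With the replicate number as a block the counts were 776 and 326 (5.59% and 2.35%, 7.94% together), and 395 and 39 of the genes first called were among them. In all 438 genes the 4 stimulated values lay on one side of the 4 control values. Over all tested genes, 6.87% lay wholly higher and 4.53% wholly lower in this way, and the median log2 fold change was −0.02. Of the 13871 genes, 6557 had positive and 7314 negative values, the background for the sign counts of gene lists below. For counts of called list members the background is 3.16% without the block and 7.94% with it. Of the 398 that rose, 340 did so by at least 1 on the log2 scale, and of the 40 that fell, 29 changed by −1 or below. A name pattern for interferon, NF-kB, chemokine and MHC genes matched 162 of the genes that rose and 0 of those that fell, leaving 236 risen genes outside it.

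The number of falling genes depended on the libraries used, more than the number of rising genes did. Leaving out 1 library gave 253 to 381 higher and 13 to 31 lower genes, the fewest without control replicate 4. Without the replicate 3 pair 237 genes were called higher and 4 lower, the 4 being Camk2n1, Card10, Fgf18 and Ncald. All 40 falling genes kept an unadjusted p under 0.05 in those 6 libraries, with a median log2 fold change of −1.42 against −1.31 in all 8. In replicates 1 and 4 alone the median of the same 40 genes was −1.62, and in replicates 2 and 3 alone −1.09. Replicates 1 and 4 are also those in which the proximal tubule marker sum was less than 0.5 times its control after stimulation, and the part of this marker shift in the falling genes was not tested. With all 20 libraries in 1 model under their labels, 0 genes were called in het cells by edgeR (0%), with 1981 at an unadjusted p under 0.05, 0 by limma-voom, and 435 higher and 48 lower by DESeq2.

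**Figure D2:**
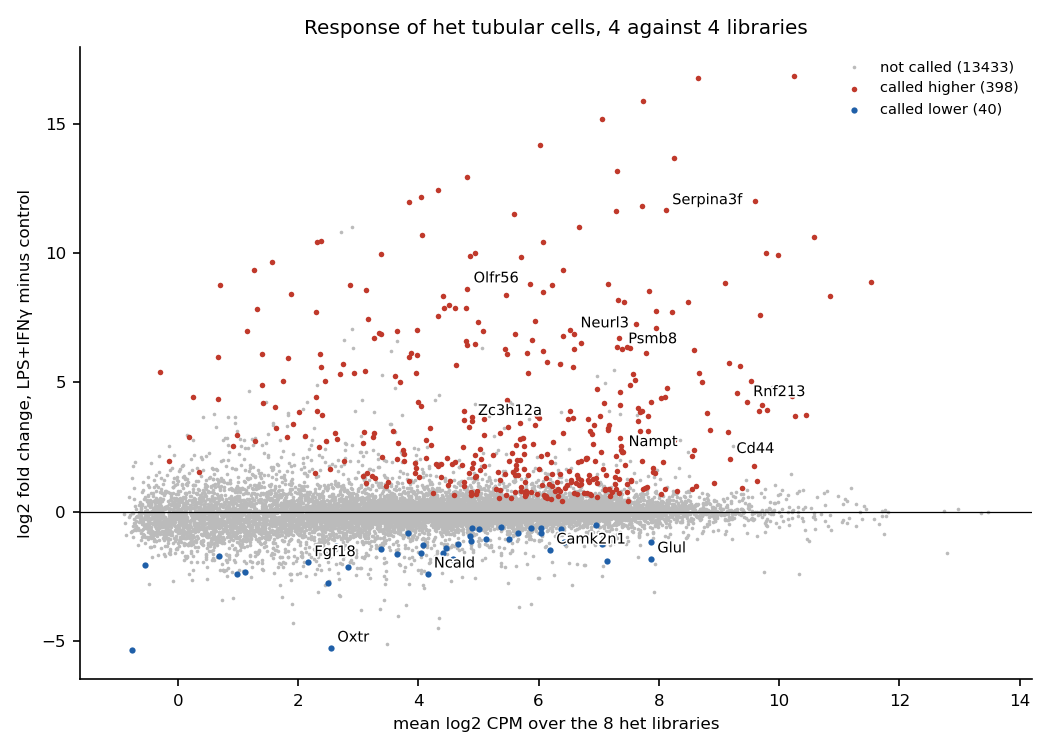
Each point is 1 of 13871 genes, with its mean log2 CPM over the 8 het libraries on the horizontal axis and its log2 fold change (LPS+IFNγ minus control) on the vertical axis. The 398 red points (called higher) reach far greater sizes than the 40 blue points (called lower), most of which lie between −1 and −2.5.

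Promoters are shown so that the elements named above can be seen beside the values that follow. The rising genes shown are the 3 with the lowest p among named genes that hold a GAS or ISRE match, and the falling genes the 2 with the lowest p among named genes with a window. They are RefSeq windows of GRCm38.p6, 250 bases before to 50 after the annotated start, printed 5′ to 3′ on the gene's strand with motif matches in capitals. Both strands were searched with 1 fixed pattern each for GAS (TTCNNNGAA), ISRE, a kappaB site and an HNF1 site, which occur in 8.47%, 3.49%, 0.385% and 0.437% of 27025 windows. The windows of Erap1 (chr13:74639603-74639902, + strand), Serpina3f (chr12:104214294-104214593, + strand) and Calhm6 (chr10:34127923-34128222, − strand) belong to rising genes and those of Gnai1 (chr5:18360364-18360663, − strand) and Celsr2 (chr3:108415530-108415829, − strand) to falling ones.
Erap1: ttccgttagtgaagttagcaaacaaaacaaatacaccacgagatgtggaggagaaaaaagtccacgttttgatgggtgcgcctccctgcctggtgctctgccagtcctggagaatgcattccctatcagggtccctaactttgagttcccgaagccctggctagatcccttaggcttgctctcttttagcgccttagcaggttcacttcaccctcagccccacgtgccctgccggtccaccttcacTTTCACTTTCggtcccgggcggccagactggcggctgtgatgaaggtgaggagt
Serpina3f: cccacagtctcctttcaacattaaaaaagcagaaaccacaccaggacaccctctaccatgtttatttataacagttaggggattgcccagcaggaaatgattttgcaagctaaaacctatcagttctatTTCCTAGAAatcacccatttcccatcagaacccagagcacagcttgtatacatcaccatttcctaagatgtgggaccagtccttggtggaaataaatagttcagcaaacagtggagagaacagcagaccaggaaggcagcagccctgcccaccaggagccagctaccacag
Calhm6: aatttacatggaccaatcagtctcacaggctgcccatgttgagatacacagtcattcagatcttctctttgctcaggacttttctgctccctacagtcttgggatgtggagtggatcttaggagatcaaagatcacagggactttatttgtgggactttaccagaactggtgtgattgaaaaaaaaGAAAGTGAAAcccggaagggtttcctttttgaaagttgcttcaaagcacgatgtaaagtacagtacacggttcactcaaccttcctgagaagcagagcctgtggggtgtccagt
Gnai1: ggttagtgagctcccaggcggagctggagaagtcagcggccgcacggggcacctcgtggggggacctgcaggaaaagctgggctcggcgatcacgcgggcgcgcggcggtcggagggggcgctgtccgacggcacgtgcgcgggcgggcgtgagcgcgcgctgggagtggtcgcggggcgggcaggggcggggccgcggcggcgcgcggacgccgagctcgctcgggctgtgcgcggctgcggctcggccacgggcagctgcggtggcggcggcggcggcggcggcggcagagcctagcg
Celsr2: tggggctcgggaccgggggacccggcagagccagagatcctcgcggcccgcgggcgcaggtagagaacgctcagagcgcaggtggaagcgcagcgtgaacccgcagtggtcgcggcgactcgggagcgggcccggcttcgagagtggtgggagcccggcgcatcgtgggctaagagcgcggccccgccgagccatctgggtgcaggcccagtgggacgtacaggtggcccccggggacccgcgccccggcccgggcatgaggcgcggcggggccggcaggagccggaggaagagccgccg
Erap1 held an ISRE match that begins 4 bases before the start, on the other strand, Calhm6 an ISRE match 64 bases before it and Serpina3f a GAS match 121 bases before it. Gnai1 and Celsr2 held none of these letters in this window. Nor did the rising genes Nmi, Zc3h12a, Idnk and Olfr56, whose p was lower than that of Serpina3f. Matches also occurred in falling genes: 3 of the 12 named falling genes with a window had one (an ISRE in Glul and Tenm4, a GAS in Amot), as did 4 of the 10 named rising genes, the other being a kappaB match in Neurl3. Windows were found for 74.4% of tested genes, too few for a comparison over the called sets. A match describes the letters and is not a measured binding site.

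The falling genes are taken here by the roles of their products, an arrangement made after the genes were known and not tested as groups. Oxtr, Gnai1 and Fgf18 encode a receptor, a G protein subunit and a ligand. Oxtr, the G protein-coupled receptor for oxytocin, stood at 8.84, 14.9, 18.7 and 1.96 CPM in control replicates 1 to 4 and at 0.0609, 0.655, 0.326 and 0.0634 CPM after stimulation. Every stimulated value lay under every control value, the closest approach being control replicate 4. The fall was −5.26 ± 0.98 on the log2 scale (SE, adjusted p = 0.0265), from 805 counts over the controls to 19 over the stimulated libraries. Gnai1, an inhibitory G protein alpha subunit that lowers cyclic AMP, went from 31.7 ± 6.8 to 12 ± 2.5 CPM (SD, n = 4 each), a log2 change of −1.38 ± 0.21 (adjusted p = 0.0108). Fgf18, a fibroblast growth factor ligand, was at 7.04, 8.04, 3.33 and 9.42 CPM in controls and at 1.42 to 2.35 CPM in stimulated cells (−1.96 ± 0.37, adjusted p = 0.0284). Among 31 tested EGF, FGF and HGF ligands and receptors it was the one gene called, and the median of that list was −0.03. With the replicate block 4 genes of the list, Fgf18 included, were called lower and 1 higher.

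Ncald, Camk2n1, Camk1 and Rcan2 encode proteins that bind calcium or act on calcium-dependent enzymes. Ncald (neurocalcin delta, a calcium sensor) was at 47.0, 28.7, 12.6 and 31.4 CPM in controls and narrowly spread at 5.72, 5.02, 5.67 and 5.84 CPM in stimulated cells. The controls were spread far more widely, yet the lowest of them was still above every stimulated value (log2 change −2.40 ± 0.35, adjusted p = 0.00845). Camk2n1, an inhibitor of the calcium/calmodulin-dependent kinase CaMKII, had the lowest p of all falling genes, falling from 105, 112, 126 and 84.9 to 41.6, 40.3, 39.1 and 31.5 CPM (−1.47 ± 0.16, adjusted p = 0.00155). Camk1, a kinase that calmodulin activates, fell by 0.57 ± 0.11, from 49.6 ± 3.2 to 33.0 ± 3.2 CPM (SD, n = 4 each). Rcan2, which inhibits the calcium-activated phosphatase calcineurin, fell from 31.7 ± 8.6 to 10.4 ± 3.7 CPM. Syt12, a member of the synaptotagmin family of membrane-trafficking proteins, held 15.2, 15.1, 15.8 and 14.3 CPM in controls and 3.77, 5.3, 5.87 and 7.04 CPM in stimulated cells (−1.44 ± 0.22, adjusted p = 0.00942). The Syt12 locus overlaps a transcript on the other strand, and the sources used here do not say whether counting used strand.

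Celsr2, Tenm4, Flrt1 and Plxna2 encode cell-surface proteins of adhesion or guidance, while none of 28 tested junction and polarity genes and 12 integrins was called. With the block 3 junction and polarity genes were called lower and 1 higher, and still no integrin. Celsr2, an atypical cadherin of the planar polarity family, went from 227, 145, 163 and 214 to 58.5, 94.5, 81.9 and 78.7 CPM (−1.23 ± 0.19, adjusted p = 0.0115). Its highest control and its lowest stimulated value both came from replicate 1. Tenm4, a teneurin (a large transmembrane adhesion protein), was at 22.1, 3.38, 5.57 and 7.93 CPM in controls, again highest in replicate 1, and at 1.24 to 1.64 CPM after stimulation (−2.77 ± 0.57, adjusted p = 0.0423). Flrt1, a leucine-rich repeat adhesion protein, fell by 1.65 ± 0.27 and Plxna2, a plexin that receives semaphorin signals, by 0.83 ± 0.16. Of 34 tested ion channel and neural-type genes, Plxna2 and Tenm4 fell and the guidance ligand Ntn1 rose, and 28 of the 34 had negative values, with a median of −0.42. In all, 8.82% of the list was called against 3.16% of all genes tested. With the block 6 of its genes were called lower and 1 higher, against 2.35% and 5.59% of all genes tested. Amot, an angiomotin that links tight junctions, actin and the Hippo pathway, went from 251, 109, 180 and 355 CPM to 37.4, 52.1, 76.4 and 66.1 CPM (−1.92 ± 0.37, adjusted p = 0.033). Arhgap24, which switches off the GTPase Rac, held 56.1 to 64.9 CPM in controls and 18.9 to 37.6 CPM in stimulated cells. None of the 13 tested YAP and SRF target genes was called and their median was −0.07.

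**Figure D3:**
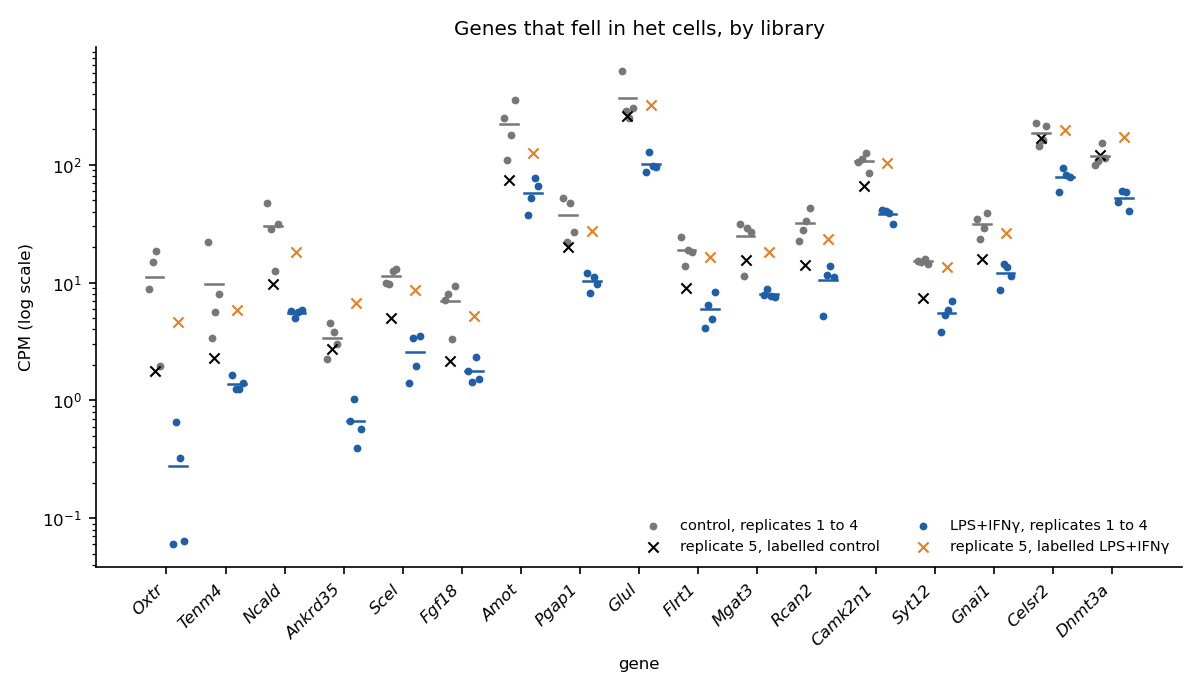
Points give the CPM (log axis) of 17 falling genes in het control (grey) and LPS+IFNγ (blue) replicates 1 to 4, with bars at the means; crosses are the 2 libraries of replicate 5 under their labels. Blue points lie below all grey points for each gene, and the orange crosses (replicate 5 labelled LPS+IFNγ) lie above the blue points.

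Some falling genes encode enzymes, although most genes of the metabolic lists were not called. Glul, glutamine synthetase, was at 629, 285, 250 and 304 CPM in controls and at 86.6, 128, 98.3 and 96.0 CPM in stimulated cells (−1.81 ± 0.30, adjusted p = 0.0154). Its control replicate 1 stood well above the other controls, and no stimulated value reached the lowest control. Gamt, which makes creatine, went from 8.68 ± 2.7 to 3.37 ± 0.26 CPM, Pccb, a propionyl-CoA carboxylase subunit, from 35.7 ± 7.2 to 14.7 ± 4.0 CPM and Acadm, the medium-chain acyl-CoA dehydrogenase, from 84.3 ± 17 to 47.4 ± 4.0 CPM (SD, n = 4 each). Acadm was the one gene called among 25 fatty acid oxidation genes, of which 21 had negative values (median −0.18), and Pccb the one among 24 genes of branched-chain amino acid and propionate breakdown. With the block 1 fatty acid oxidation gene was called lower and 1 higher, and 2 genes of the other list were called lower. Mgat3, a glycosyltransferase that adds bisecting N-acetylglucosamine, fell by 1.59 ± 0.30, and Pgap1, which remodels GPI anchors, by 1.84 ± 0.30. Ptgs1, the constitutive cyclooxygenase, fell from 39.9 ± 7.4 to 18.0 ± 3.9 CPM (−1.13 ± 0.19, adjusted p = 0.0163). The inducible cyclooxygenase gene Ptgs2 was at 18.8, 65.8, 36.0 and 35.9 CPM in controls and at 154, 71.2, 147 and 101 CPM in stimulated cells, which did not pass the test (log2 difference 1.60, adjusted p = 0.1). Cerk, ceramide kinase, fell by 0.95 ± 0.20.

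The remaining falling genes included regulators of chromatin and transcription. Dnmt3a, a de novo DNA methyltransferase, was at 100, 107, 153 and 115 CPM in controls and at 48.5, 60.1, 59.1 and 40.8 CPM in stimulated cells (−1.17 ± 0.19, adjusted p = 0.0138). Smaller falls, under 1 on the log2 scale, were seen for the nuclear receptor corepressor Nrip1 (−0.67 ± 0.13) and the transcription factor Nfia (−0.62 ± 0.10), and the histone variant H2afj fell by 1.04 ± 0.17. Card10, a scaffold that couples receptors to NF-kB, fell from 126 ± 24 to 56.0 ± 19 CPM but missed the threshold with the replicate block (adjusted p = 0.0526), the one falling gene to do so. Scel, a cornified-envelope protein, fell by 2.12 ± 0.34 and the ankyrin repeat gene Ankrd35 by 2.33 ± 0.42. Isca1, for iron-sulfur cluster assembly, Map1lc3a, an autophagosome protein, Dnajc19, a mitochondrial import cochaperone, and the ubiquitin ligase gene Rnf187 fell by 0.53 to 0.81. Rogdi (−1.27 ± 0.25) and the monocarboxylate transporter family gene Slc16a4 (−2.41 ± 0.51) also fell. The last 4 were A930037H05Rik, E130208F15Rik, Gm14435 and Gm26782, which have clone or predicted names. A930037H05Rik lies opposite Rnf213, which rose, and had 68 counts over the controls and 1 library with any count after stimulation. Of the 40 falling genes, 17 were named by rank of fold change or p, and the others were named to complete the account, apart from 1 that is not reported here.

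Contractile, matrix and segment genes moved unevenly between cultures. Of 19 genes listed as contractile and cytoskeletal 16 had negative values with a median of −0.77. Only Oxtr and Ncald were called, 10.5% of the list against 3.16% of all genes tested. They are a receptor and a calcium sensor, put on a list made with earlier results known. The other 17 were not called. With the block, which called 2.35% of all genes tested lower and 5.59% higher, Mylk, Des, Myh11, Actg2 and Myl9 were also called lower. Mylk, myosin light chain kinase, was at 126, 273, 391 and 102 CPM in controls and at 4.99, 69.1, 53 and 30.1 CPM in stimulated cells. These do not overlap, yet the adjusted p was 0.182, and 0.028 with the block. Of 28 collagen and matrix genes 22 were negative (median −0.96) and none was called; with the block 8 were called lower, among them Postn and Fbn1, and 1 higher. Col1a1, the main fibrillar collagen chain, stood at 30.0, 533, 7619 and 290 CPM in controls, with replicate 3 far above the rest, and at 19.7, 483, 869 and 230 CPM in stimulated cells. Fibroblast and pericyte markers, which share some of these genes, were lower in the stimulated library of every pair, and their part in these values was not tested. Aqp1, a water channel of the proximal tubule, was at 61.1, 0.0638, 7.87 and 85.3 CPM in controls and at 2.13, 0.218, 0.913 and 5.39 CPM in stimulated libraries, lower where it was well expressed (adjusted p = 0.288, 0.0192 with the block). None of 16 tested nephron transporters and 22 renal transcription factors was called without the block, and 24 of 26 Hox genes had negative values (median −0.38) with none called. With the block 2 nephron transporters and 3 Hox genes were called lower, and 2 renal transcription factors lower and 2 higher.

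Outside the immune name pattern, the predicted genes Gm4841 and Gm43302 had 0 counts in the 4 controls and were at least 10495-fold and 3218-fold higher after stimulation, taken against 3 counts over the controls together. Gm43302 overlaps Gbp10 and Gbp6, and both names were chosen after their values were seen. The genes that follow are those with the highest fold changes among genes without predicted or clone names. Serpina3f, a serpin, had 12 counts over the 4 controls and 1131, 475, 343 and 249 CPM in stimulated replicates 1 to 4 (11.65 ± 1.09, adjusted p = 0.000807). Neurl3, a ubiquitin ligase, went from 0.553, 1.34, 1.09 and 3.45 CPM to 228, 112, 74.1 and 342 CPM (6.89 ± 0.78, adjusted p = 0.00229). Ms4a4d, a membrane protein of the MS4A family, and Calhm6, of the calcium homeostasis modulator family, had 1 and 2 counts over the controls, so no fold is given; after stimulation they reached 3.52 to 49.7 and 1.37 to 10.3 CPM. Olfr56 (8.62 ± 0.80) overlaps Ifi47 on the same strand and Tgtp1 and Tgtp2 on the other, and its counts cannot be assigned to it with certainty. Rsc1a1 is likewise uncertain because it overlaps Ddi2 on the same strand, and it had 0 counts in the 4 controls but 5.51 CPM in the library labelled control replicate 5 and 3.82 CPM in the one labelled stimulated replicate 5.

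Genes with smaller folds but little spread had the lowest p. Erap1, the endoplasmic reticulum aminopeptidase that trims peptides for MHC class I, was at 59.8, 40.4, 46.5 and 48.2 CPM in controls and at 214, 312, 308 and 276 CPM in stimulated cells (2.53 ± 0.17, adjusted p = 0.000155). Erap1 overlaps Cast on the other strand. Zc3h12a, an RNase that degrades inflammatory mRNAs, rose from 4.79 ± 1.1 to 53.6 ± 14 CPM and Nmi, which binds STAT proteins, from 5.30 ± 1.5 to 51.1 ± 12 CPM (SD, n = 4 each). Idnk, a gluconate kinase, was at 13.1 to 15.6 CPM in controls and rose to between 37.9 and 51.3 CPM. Vwa5a rose by 1.22 ± 0.10, with controls at 104 to 124 CPM and stimulated libraries at 239 to 273 CPM.

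Tryptophan, NAD and purine metabolism had 5 of 17 tested genes higher and none lower (29.4% called against 3.16% of all genes tested, median 1.07). Ido1, which opens the tryptophan ring, had 0 counts in all 4 controls and 11.6, 5.08, 4.69 and 1.21 CPM in stimulated cells; Ido2, its paralog, had 1 count over the controls. Nampt, the rate-limiting enzyme of NAD salvage, went from 78.9, 32.5, 42.0 and 75.1 to 324, 264, 241 and 274 CPM (2.30 ± 0.29, adjusted p = 0.00397). Controls fell into a lower pair (replicates 2 and 3) and a higher pair, all below the stimulated values. Pnp, purine nucleoside phosphorylase, rose from 57.0 ± 7.8 to 254 ± 82 CPM, and shares reads with the overlapping model Gm49342. Nnmt, which methylates nicotinamide, rose by 1.68 ± 0.22. Xdh, xanthine dehydrogenase, was at 27.8, 3.89, 7.38 and 34.4 CPM in controls and at 473, 78.7, 61.5 and 458 CPM in stimulated cells, which did not pass (adjusted p = 0.0975) but did with the block (0.000584).

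All 22 tested glycolysis and HIF1A target genes had positive values, with a median of 0.89, and 9.09% were called against 3.16% of all genes tested. The 2 that were called were Pfkfb3, which makes the activator of phosphofructokinase (38.5, 19.5, 20.6 and 21.1 CPM in controls, 186, 113, 74.5 and 87.7 CPM in stimulated cells), and the hexokinase gene Hk2 (114 ± 19 to 421 ± 203 CPM). Their changes were 2.23 ± 0.34 and 1.91 ± 0.32. With the block 8 genes of the list, including Pgk1 and Pkm, were called higher, against 5.59% of all genes tested. Respiratory chain and ATP synthase genes had negative values in 25 of 31 (median −0.16), with none called in either fit. Tricarboxylic acid cycle genes had negative values in 19 of 26 with none called.

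All 23 tested genes of the constitutive proteasome had positive values (median 0.35), of which 18 did not pass the test. The 5 called higher (21.7% against 3.16% of all genes tested) were Psma5, Psma6, Psma1 and Psmb2, subunits of the core particle, and Pomp, its assembly factor. Psma5 was at 100, 95.0, 102 and 88.0 CPM in controls and at 173, 183, 187 and 164 CPM in stimulated cells (0.89 ± 0.10, adjusted p = 0.00179). Of 29 lysosome, autophagy and ubiquitin genes 8 rose and none fell, so 27.6% were called against 3.16% of all genes tested. With the block 9 were called higher and 1 lower, against 5.59% and 2.35% of all genes tested. The largest rises without the block were in the ISG15 and ubiquitin conjugating enzyme gene Ube2l6 (5.58 ± 0.60) and the giant ubiquitin ligase gene Rnf213, which went from 112, 43.6, 56.7 and 75.8 CPM to 1015, 1311, 935 and 2035 CPM. Usp25, a deubiquitinase, rose by 1.04 ± 0.10, and Npc2, for lysosomal cholesterol handling, rose by 1.01.

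Other risen genes were spread over several functions. Of 29 apoptosis and survival genes 4 rose, so 13.8% were called against 3.16% of all genes tested. Among them were the kinase Ripk1 (0.61 ± 0.10), the death receptor pathway inhibitor Cflar (1.07 ± 0.19) and the pore-forming Bak1 (0.80). In iron handling, the transporter gene Slc11a2 rose by 1.43 ± 0.21 and the metalloreductase gene Steap4 from 13 counts over the controls to 8.34, 6.66, 6.13 and 59.8 CPM. Rspo3, a secreted amplifier of Wnt signals, was at 2.35, 1.28, 3.50 and 0.154 CPM in controls and at 54.6, 28.7, 14.3 and 25.3 CPM in stimulated cells (4.08 ± 0.81, adjusted p = 0.0361), the one called gene of 25 in the Wnt list, whose median was −0.34. With the block 3 genes of that list, Rspo3 included, were called higher and 2 lower. Wars, tryptophanyl-tRNA synthetase, rose from 74.4 ± 9.7 to 513 ± 185 CPM, and Ddit3, a stress transcription factor, by 1.98 ± 0.41. Cd44, a hyaluronan receptor, rose by 2.03 ± 0.29 and the adhesion molecule gene Vcam1 by 4.4 ± 0.73, while Havcr1, a tubular injury marker, was at 1861, 107, 138 and 1437 CPM in controls and 1778, 122, 253 and 1632 CPM in stimulated cells (adjusted p = 0.972). Ch25h, cholesterol 25-hydroxylase, had 7 counts over the controls and 0.652 to 3.59 CPM after stimulation. The netrin gene Ntn1 and the early response gene Ier3 rose by 1.92 ± 0.38 and 1.47 ± 0.27, and the RNA-editing enzyme gene Adar by 1.95 ± 0.21.

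All 32 tested cell cycle genes had positive values (median 0.40), with none called and 8 called higher with the block. That fit called 5.59% of all genes tested higher. Top2a, topoisomerase II, was at 138, 72.4, 98.8 and 32.4 CPM in controls and at 311, 144, 155 and 73.5 CPM in stimulated cells, higher in each pair although the groups overlap (adjusted p = 0.442, 0.00858 with the block). Oxidative stress and NRF2 target genes had 20 of 24 positive (median 0.42), none called and 5 with the block, among them Hmox1, heme oxygenase, at 50.8 to 109 CPM in controls and at 1238, 167, 196 and 295 CPM in stimulated replicates 1 to 4. For orientation, all 24 reference interferon, NF-kB and MHC genes rose, with a median of 6.33 (100% called against 3.16% of all genes tested). The libraries were chosen by interferon targets, so this count is not evidence of a response. In the fit without the block, 12 of the other 39 lists had called members only higher, 7 only lower, 1 in both directions, and 19 had none.

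**Figure D4:**
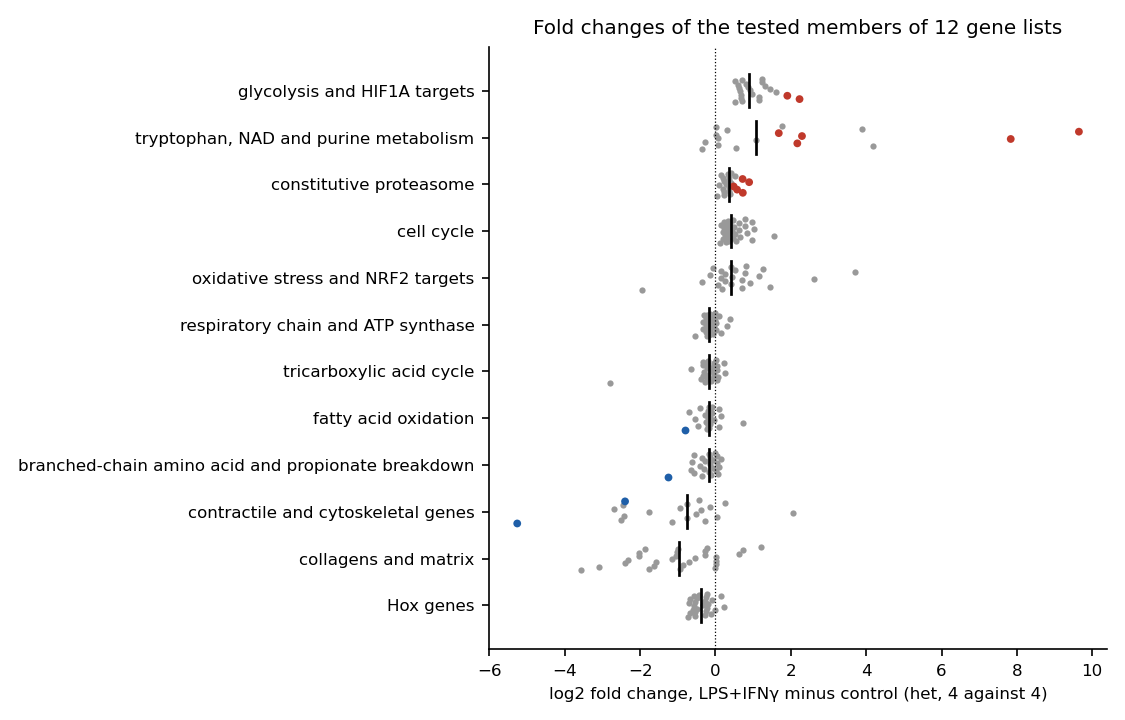
Each point is a tested gene of the named list at its log2 fold change (LPS+IFNγ minus control, 4 het libraries each); red and blue points were called higher and lower, grey points were not called, black bars are list medians and the dotted line the median of all genes. Every glycolysis, proteasome and cell cycle gene lies to the right of 0, while most contractile, collagen and Hox genes lie to the left.

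The KO cells give the same stimulation in libraries that did not choose the het set. Animal numbers 5 and 7 stand in both sets, so by the labels the sets are not wholly separate. KO replicate 4 was set aside by its interferon targets, and the overlaps below are not free of that choice. In a model of 16 libraries, without KO replicate 4 and het replicate 5, 704 genes were higher and 139 lower in stimulated KO cells (4.81% and 0.95% of 14630 genes, 5.76% together), against 829 and 217 in het cells (5.67% and 1.48%, 7.15% together) in the same model. Of the 398 het genes that rose, 379 were called higher in KO, which is 95.2% of the het and 53.8% of the KO genes, and all 398 had the same sign. Of the 40 that fell, 20 were called lower in KO (50% of the het and 14.4% of the KO genes) and 39 had the same sign. The median log2 change of the falling set was −1.31 in the 8 het libraries and −0.77 in KO, and that of the rising set 2.87 and 2.63. Since the genes were picked for their change in het cells, a smaller median in KO is built into the comparison.

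Ncald, Camk2n1, Oxtr and Fgf18 fell in KO cells too, by 2.48, 1.22, 4.73 and 2.31 on the log2 scale (adjusted p = 6.1e-05, 0.000108, 0.0124 and 0.000304). Tenm4, Gnai1, Pccb and Acadm did not pass in KO, at −0.71, −0.46, −0.47 and −0.27. The test of the difference between the 2 responses called 0 of 14630 genes by edgeR, with 224 at an unadjusted p under 0.05, 0 by limma-voom or DESeq2, and 0 with the block. Of the 40 falling genes 7 had an unadjusted p under 0.05 for the difference, each with the larger fall in het (Tenm4, E130208F15Rik, Gnai1, Acadm, Pccb, A930037H05Rik and H2afj), and none passed the adjustment. Of the 398 rising genes 16 had such a p. Both sets were picked for their change in the same het libraries, so a larger change in het is built into these counts. For Tenm4 the difference was −2.07 ± 0.66 (unadjusted p = 0.00689). Its het control replicate 1 stood at 22.1 CPM against 3.38 to 7.93 CPM in replicates 2 to 4. In simulated data of this design, with 1 dispersion for all genes, 28.3% of genes with a true difference of 2 on the log2 scale were recovered, so differences of that size could be missed.

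The het replicate 5 pair was left out because interferon targets ran against its labels, so its values are a description and support nothing. Of the 398 genes, 386 were lower in the library labelled stimulated than in the one labelled control, and of the 40 falling genes 39 were higher. The median log2 differences were −1.17 and 0.48, against 2.39 to 2.98 and −1.76 to −0.89 in replicates 1 to 4. The library labelled control replicate 5 was above all 4 controls in 337 of the 398 genes and below all 4 in 32 of the 40. Camk2n1 stood there at 66.2 CPM, between the 2 groups, and at 103 CPM in the library labelled stimulated replicate 5, within the range of controls. For Oxtr the 2 values were 1.78 and 4.6 CPM. KO replicate 4, set aside for the same pattern, had medians of −1.46 and 0.41, while the other KO pairs had 2.22 to 2.85 and −1 to −0.64.

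**Figure D5:**
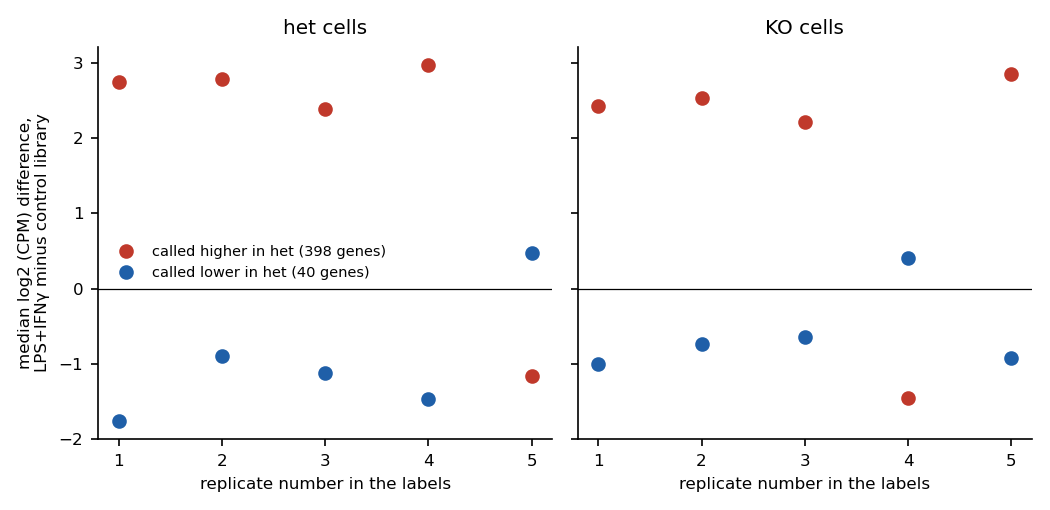
Points give the median log2 CPM difference (LPS+IFNγ minus control library) of the 398 genes called higher (red) and the 40 called lower (blue) in het cells, for each replicate number of het (left) and KO (right) cells. The labels of het replicate 5 and KO replicate 4 give red points below 0 and blue points above 0, the reverse of the other 8 pairs.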

How the data were processed

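RNA was measured by total-RNA sequencing with a strand-marking kit. The authors deposited 1 table of estimated counts per gene as whole numbers, so rounding changed none. Per the submitters' processing notes, build GRCm39 was used with Salmon 1.10.2, DESeq2 1.45.3, FastQC 0.11.9 and R 4.4.1; the strand setting and filters are not given in the sources used. Symbols came from GENCODE M21 (names for 92.0% of 55891 IDs) and promoters from RefSeq GRCm38.p6.

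Counts were tested in R 4.3.3 with edgeR 4.0.16 (TMM, filterByExpr, robust quasi-likelihood F test) on the 8 libraries, with Benjamini-Hochberg adjustment over all genes tested and a threshold of 0.05. SE is the log2 fold change divided by the square root of F. CPM use TMM-scaled library sizes (factors 0.939 to 1.12), and pair differences a prior count of 2. DESeq2 1.42.0 and limma 3.58.1 were alternatives, with other scalings, filters, libraries and a replicate block. Same-numbered het libraries deviated together from their group means (r = 0.591, 0.756, 0.530 and 0.708), all above 0.1, so the number was used as a block. Het replicate 3 joins 2 animals, and its stimulated library matched another control better. In the KO blocks, replicate 2 joins animals 5 and 6 and replicate 3 animals 6 and 7. Levels between genes are not length-scaled and were not compared.

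The libraries and gene lists were chosen with earlier results of these data known. Named genes, outside the immune pattern, without predicted or clone names and with mean log2 CPM of at least 1, were the 12 lowest and 8 highest folds, then 5 lower and 5 higher by p, and up to 3 per list by p; others named were chosen after their values were seen, and a few genes are left out. No fold is given where a group holds 3 counts or fewer in all. Intervals and limits cover counting error only. On simulated data of the 8 libraries 7.07% of 2-fold and 68.0% of 4-fold changes were recovered among 13720 genes, with 6 false calls. The simulation gave all genes 1 common dispersion and no likeness between same-numbered libraries, so these rates are a rough guide to the data.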

Additional observations from a re-analysis of the deposited data

Results flagged for a closer look

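Of 58 groups of 4 libraries examined for a single value standing apart, 6 had one; chance alone gives about 1 in 20. Glul was at 629 CPM in control replicate 1 against 250 to 304 CPM in the other controls. Calhm6 was at 10.3 CPM in stimulated replicate 1 against 1.37 to 2.67 CPM in the others. The other 4 were genes near 0 in the controls, where single counts set the value: Ms4a4d at 0.0546 CPM and Olfr56 at 0.437 CPM in control replicate 3, Ido2 at 0.0638 CPM in control replicate 2 and Calhm6 at 0.0921 CPM in control replicate 1.

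In the pair that was left out, the library labelled het control replicate 5 exceeded all 4 controls in 337 of the 398 genes that rose elsewhere. The pair was left out for the levels of its interferon targets, so this count describes what the choice rested on.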

How the results depend on the processing

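Counts of called genes, higher and lower, were 398 and 40 in het and 704 and 139 in KO cells. Het counts became 755 and 273 with DESeq2, 829 and 217 in the 16-library model, and 776 and 326 with the replicate block, 163 lower with that block and no replicate 3 pair; KO counts became 1210 and 648 with the block. KO lower counts were 372 with DESeq2, 87 without a filter and 475 in the 8 KO libraries alone. With all 20 libraries as labelled edgeR and limma-voom gave 0 in each, and DESeq2 110 and 5 in KO. These subsets were chosen after seeing the data: without the replicate 3 pair 237 and 4, replicates 1 and 4 only 209 and 11, and replicates 2 and 3 only 73 lower. Leaving out 1 library gave 253 to 381 higher and 13 to 31 lower genes in het. The higher count moved by over 1.5 times without control replicate 3 (265) or 4 (253); the lower count did so without control replicates 1 to 4 (15, 25, 14 and 13) or stimulated replicates 2 and 3 (18 each). The KO lower count ranged from 64 to 258, the extremes without stimulated KO replicate 5 and stimulated het replicate 1. The cause was not tested in any of these. The difference between responses gave 0 calls under each of its alternatives. Directions of the list medians that the text names were the same with DESeq2's size factors, which put the median of all genes at −0.03. Mmp13, not called, reversed to −0.57 in replicates 2 and 3 only (2.37 in all 8). With 4 libraries a group, 2-fold changes were rarely recovered in the simulation, which gave all genes 1 dispersion. In the data 58 rising and 11 falling genes with changes under 1 on the log2 scale were called. A gene not called need not be unchanged.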
